A study of Mus musculus with 4 samples.

Results

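The comparison described here set 1 chromatin immunoprecipitation (ChIP) library from mouse embryonic stem (ES) cells kept in SB431542 against 1 library from the same cell line without it, 2 of the 4 libraries of the study. Both ES libraries came from V6.5 cells, a line of C57BL/6-129 background, which had been taken off feeder fibroblasts for passages on gelatin before harvest. The treated cells received 10 uM SB431542 for 24 h up to crosslinking, and the untreated cells normal culture conditions. The antibody in all libraries was Abcam AB1791 against total histone H3. The other 2 libraries, from C2C12 myotubes differentiated for 48 h and from the pro-B cell line 38B9 in normal culture, were used only as a measure of how far H3 libraries of different cell types lie apart. The libraries were chosen by their labels, and the values below describe what differed at a fine scale after the overall shift of each chromosome had been divided out.

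Histone H3 is a core histone and a part of every nucleosome, the protein spool around which DNA is wound. An antibody against total H3, which does not depend on a modification of the tail, therefore recovers DNA broadly over the genome, and a local excess or lack of reads marks places where more or less nucleosomal DNA was recovered and could be aligned. SB431542 blocks the kinase of type I receptors for TGF-beta, activin and Nodal, which pass their signal to the nucleus through SMAD proteins. Activin and Nodal signalling is active in cultured ES cells and is best known for its part in holding back or directing differentiation. The comparison asks whether H3 along the chromosomes differed after this signal had been blocked.

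Each group had 1 library, so there was no replicate check and no test, and total H3 reads carry no marker by which the labelled cell type could be checked. The intervals given are exact 95% binomial intervals and cover counting error only. Bins, windows and segments named below were picked as extremes among many, and their intervals do not allow for that choice. Per the file headers, the SB431542 library came from run 100804 and the other 3 from run 100623: what SB431542 did and what the run did cannot be told apart. No input DNA was used here, and a change in DNA copies and a change in the H3 on each cannot be told apart either. On the autosomes the untreated library held 13132855 distinct positions among 13514232 reads, and the SB431542 library 13469179 among 14255960. Repeats of a position and strand made up 2.82% of the untreated reads and 5.52% of the SB431542 reads, beside 3.44% in myotubes and 2.81% in pro-B cells. A position on a strand was counted once, and is called a read below. The median 10 kb bin held 60 reads in the untreated and 61 in the SB431542 library.

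The 2 ES libraries differed in how their reads lay on the 2 strands. In ChIP libraries, reads on the plus strand start at one end of a DNA fragment and reads on the minus strand at the other, so that the usual distance between them follows the fragment length. Pairs of a plus and a following minus read were counted by their distance (offset) and divided by the count at 801 to 1000 bp. In the SB431542 library the excess peaked at an offset of 45 bp, at 1.34 times the far level. The untreated library peaked at 55 bp, at 1.27 times, and both the myotube library (1.26 times) and the pro-B library (1.38 times) at 54 bp. The SB431542 library thus had the shortest offset of the 4, while its peak height lay between those of the others.

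The mean offset of the excess between 20 and 120 bp was also lowest in the SB431542 library. It was 57.4 bp with SB431542, 63.3 bp without, 63.5 bp in myotubes and 64.2 bp in pro-B cells. Over the 19 autosomes, which share their library and are no replicates, it ran from 54.3 to 59.2 bp with SB431542 (SD 1.35) and from 61.5 to 64.9 bp without (SD 0.781). The ranges of the SB431542 library and of each of the other 3 libraries did not overlap, since the lowest autosome was at 61.4 bp in myotubes and at 62.8 bp in pro-B cells. The difference between the ES libraries was -5.86 bp, and it was negative in 19 of 19 autosomes, from -8.78 to -3.69 bp. It was also -5.86 bp after 1928 windows of 1 kb with more than 30 reads in any library had been left out. With all reads as deposited, in which repeats of a position pile up, it was -1.55 bp and ran from -11.3 to 102 bp over the autosomes, so it is a measurement on distinct positions. All libraries also had a narrow maximum at an offset of -36 bp (1.34 with SB431542, 1.27 without) and a drop at -35 bp (0.856 and 0.788), where 36 is the seed length of the alignment. If a minus-strand position marks the leftmost base of its read, the fragment is longer than the offset by the length of the read. The files do not state the convention, and the difference between the libraries does not depend on it.

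**Figure D1:**
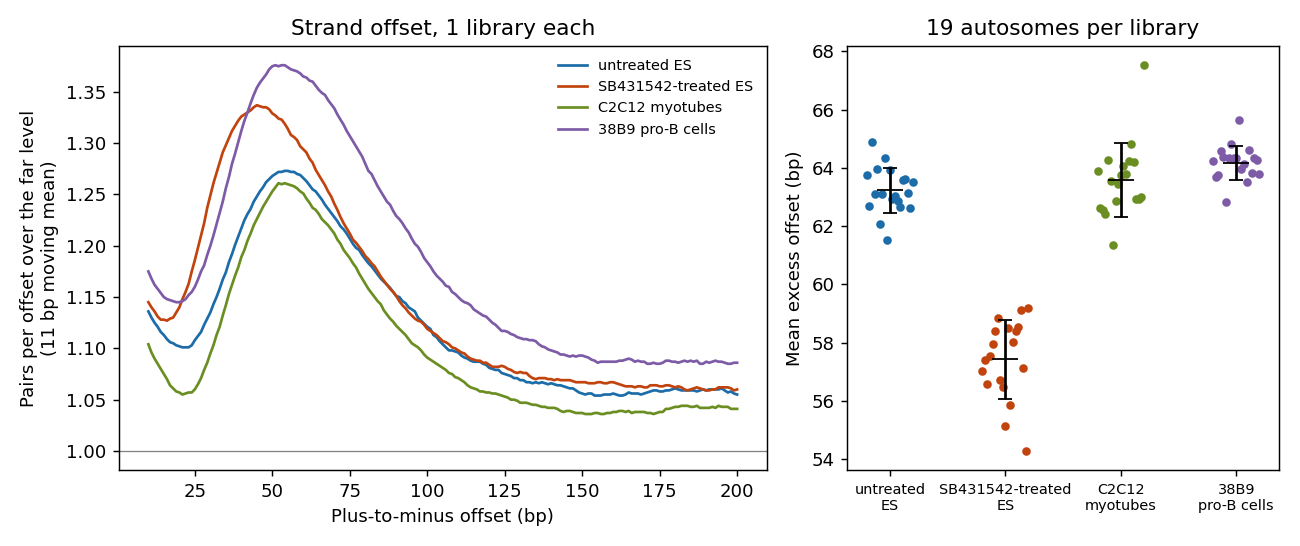
Strand offset in the 4 H3 libraries. Left, pairs of plus and minus reads per offset (bp) over the level at 801 to 1000 bp, as a moving mean over 11 bp, 1 line per library. Right, the mean offset of the excess (bp), 1 point per autosome, with the mean and SD over 19 autosomes in black. The SB431542 curve peaks at 45 bp, the untreated curve at 55 bp, and the SB431542 points, from 54.3 to 59.2 bp, lie below those of every other library.

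Reads on the same strand lay closer together in the SB431542 library at distances of a few bases. Pairs of same-strand reads 3 to 7 bp apart were 2.54 times as frequent as pairs at the far level with SB431542 and 2.33 times without, a ratio of 1.09 between the libraries that was above 1 in 19 of 19 autosomes (1.02 to 1.12). At 8 to 20 bp the values were 1.63 and 1.56, a ratio of 1.05 (1.00 to 1.08 over the autosomes). At 1 to 2 bp they were 3.36 and 3.28, a ratio of 1.03 that was above 1 in 16 of 19 autosomes. Beyond 20 bp the libraries hardly differed. The ratio was 1.00 at 21 to 50 bp, 0.995 at 51 to 100 bp and 1.01 at both 101 to 200 and 201 to 400 bp. The SB431542 values lay inside the span of the other cell types at 3 to 7 bp, where myotubes had 2.61 and pro-B cells 2.45, so the order of the libraries here was not that of the strand offset. With all reads as deposited the ratio was 1.03 at 3 to 7 bp (0.828 to 1.30 over the autosomes) and 0.961 at 8 to 20 bp, where its direction turned.

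**Figure D2:**
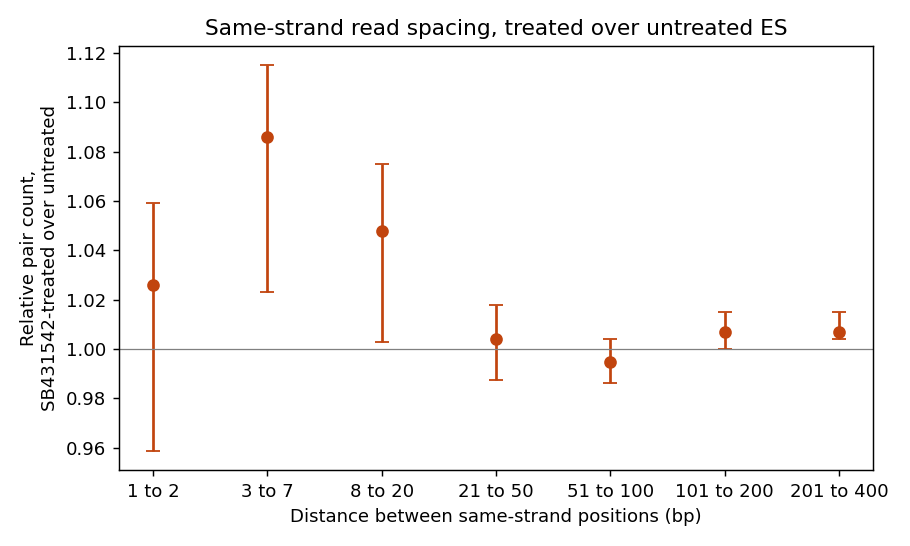
Same-strand read spacing. Points give the pair count relative to the level at 801 to 1000 bp in the SB431542 library over that in the untreated library, by class of distance (bp), and bars the lowest and highest of 19 autosomes. The ratio is 1.09 at 3 to 7 bp and between 0.995 and 1.01 beyond 20 bp.

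Positions shared exactly between libraries were counted in the same way, as pairs at distance 0 over the far level. The untreated and SB431542 libraries shared 245446 positions on the same strand, 5.72 times the far level. The untreated library shared 248384 with myotubes (6.31 times) and 261840 with pro-B cells (6.36 times), and those 2 libraries shared 250373 (6.41 times). The SB431542 library shared 228997 with myotubes (5.66 times) and 240216 with pro-B cells (5.68 times). The 3 values that involve the SB431542 library were thus the 3 lowest, and among them the highest was that with the untreated library of the same cell line. The 3 higher values were all between libraries of run 100623. Here too the treatment and the run cannot be told apart.

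For the amount of H3 reads along the chromosomes, the share of each bin in its library's autosomal total was compared, and the ratio was divided by the median bin ratio of its chromosome. In 10 kb bins that median was 1.08 on chromosome 8 and between 0.975 and 1.007 on the other 18 autosomes. On 4 autosomes (chromosomes 5, 7, 11 and 17) the median bin held equal numbers of reads in the 2 libraries, which sets their centre at 0.975. The ratio of all reads of a chromosome lay from 0.996 to 1.01 times its median, and this gap is the precision of the centring.

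After centring, the SB431542 library lay closer to the untreated library than the myotube or pro-B library did at every bin size. The spread of the ratio was expressed as the mean squared deviation over that of binomial counting, which is 1 when libraries differ by counting error alone. For SB431542 against untreated it was 1.03 in 1 kb windows, 1.12 in 10 kb bins, 1.72 in 100 kb bins and 5.99 in 1 Mb bins. For myotubes against untreated it was 1.10, 1.66, 6.42 and 41.8, and for pro-B cells 1.38, 3.41, 18.6 and 102. The 3 comparisons share the untreated library. At 1 kb and 10 kb, most of the spread between the ES libraries was therefore of the size of counting error, and the share above it grew with the bin. The median bin held 14, 121, 1156 and 11360 reads in the 2 ES libraries together. With more reads, relative counting error shrinks, so this measure rises with the bin even for a difference of constant size. The rise does not tell narrow from broad differences.

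The correlation between neighbouring bins was small, in part because counting error lowers it. Across pairs of 10 kb bins, which share libraries and base composition, the log2 ratios of SB431542 to untreated had a Pearson r of 0.0738 (Spearman rho 0.0709) in adjacent bins, 0.0503 at 100 kb, 0.035 at 1 Mb and 0.0107 at 10 Mb. Myotubes gave 0.336 in adjacent bins and pro-B cells 0.55, falling to 0.0472 and -0.00664 at 10 Mb. The values for SB431542 were the lowest of the 3 up to 5000 kb. The 3 comparisons are not on an equal footing here. At 10 kb the ES pair had a spread of only 1.12 times counting error, while myotubes stood at 1.66 and pro-B cells at 3.41. Counting error thus lowered r most between the ES libraries. The order of the r values does not tell whether the part above counting error was less alike in neighbouring bins.

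**Figure D3:**
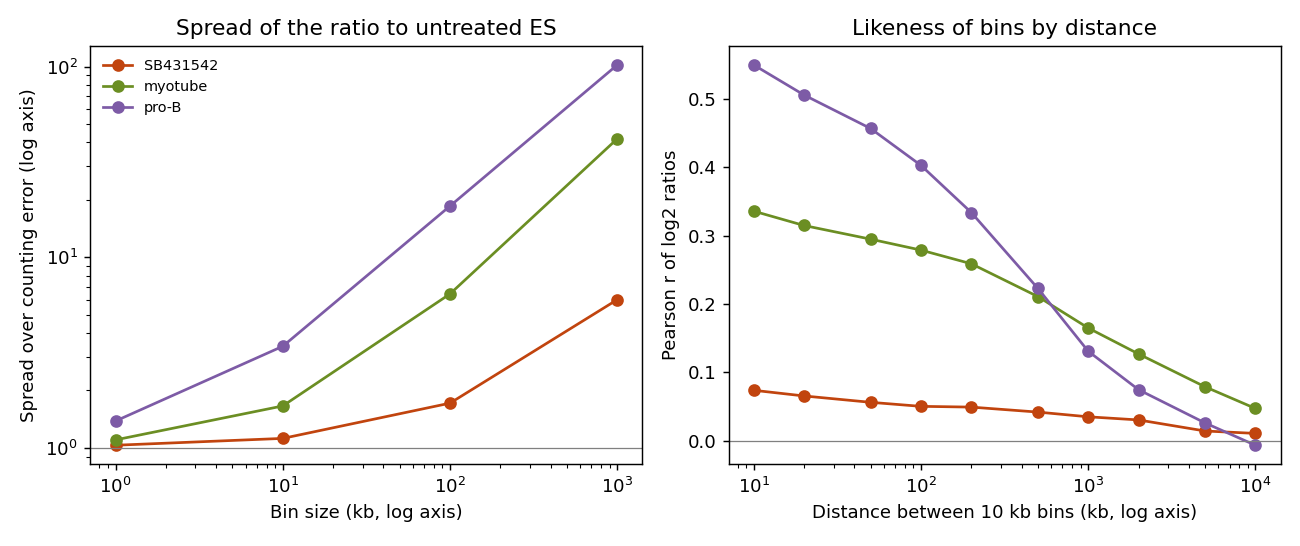
Left, spread of the centred ratio to untreated ES over counting error, by bin size (kb, both axes log). Right, Pearson r of log2 ratios between 10 kb bins by distance (kb, log axis). The lines are SB431542, myotubes and pro-B cells, each against the same untreated library. SB431542 lies lowest on the left at every bin size, from 1.03 to 5.99, and starts at 0.0738 on the right.

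The ratio was also taken from each of the 2 strands of the same libraries, over the same bins. Copies of 1 amplified fragment can be read from either end. Keeping 1 read per position and strand does not remove such pairs, and their number was not measured. Agreement of the strands is thus not an independent check. Over 23371 bins of 100 kb, the ratio from plus reads and the ratio from minus reads had r = 0.249 (rho 0.248), and the part they shared had an SD of 0.0722 on the log2 scale. In 10 kb bins r was 0.0582 (rho 0.0567), and the shared part had an SD of 0.094. Myotubes gave 0.746 and 0.239, and pro-B cells 0.881 and 0.497. By chromosome, r at 100 kb ran from 0.155 on chromosome 19 to 0.342 on chromosome 15. The 325 bins of 100 kb that were at least 25% higher with SB431542 in plus reads had a median log2 ratio of 0.0836 in minus reads, and 70.5% of them were above 0, beside 49.9% of all bins. The 309 lower bins had -0.0862, with 73.1% below 0. With 10 kb bins chosen at 2-fold on one strand, between 51.9% and 57.5% lay in the same direction on the other, beside 48.8% to 49.5% of all bins. For bins picked on one strand, the difference was thus mostly gone on the other at 10 kb, and partly kept, at a small size, at 100 kb. The 10 kb bins hold fewer reads and were picked at a higher fold. By its SD, the part shared by the strands was not smaller at 10 kb than at 100 kb.

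Over 10 Mb the differences were small. Of 253 segments, 220 had a ratio within 5% of 1. The interval lay above 1 in 105 segments (41.5%) and below 1 in 88 (34.8%), so that at this depth most segments differed by more than counting error. The lowest ratio was 0.912 (0.897 to 0.927), on chromosome 4 from 150000001 to the end, with 27431 reads with SB431542 and 29520 without. The next lowest lay on chromosome 8 from 120000001 to 130000000 (0.923, 0.913 to 0.932), chromosome 2 from 170000001 to 180000000 (0.925, 0.912 to 0.939), chromosome 4 from 130000001 to 140000000 (0.926, 0.915 to 0.936) and chromosome 15 from 80000001 to 90000000 (0.928, 0.917 to 0.939). All 5 lie in the distal part of their chromosome. Coordinates here are those of the mm8 build, counted from 1.

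The highest segment was on chromosome 5 from 10000001 to 20000000, at 1.08 (1.07 to 1.09), with 49164 reads against 45566. It was followed by the adjoining segments of chromosome 4 from 20000001 to 30000000 (1.08, 1.06 to 1.09) and from 10000001 to 20000000 (1.07, 1.06 to 1.09). Scaled to the autosomal total alone, the segment of chromosome 5 stood at 1.052 and those of chromosome 4 at 1.069 and 1.065. Their order thus depends on the centring. Chromosome 4 thus held both some of the highest ratios, in its proximal part, and the lowest, in its distal part. Chromosome 8 was not flat once its shift of 1.08 had been divided out. Its 14 segments ran from 0.923 at 120000001 to 130000000 to 1.05 (1.04 to 1.07) at 50000001 to 60000000, a span inside that of the other 239 segments (0.912 to 1.08). Before centring the segment from 120000001 stood at 0.997 and that from 50000001 at 1.14, while the last, shorter segment from 130000001 stood at 1.08 (1.00 after centring, 0.981 to 1.03).

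The ratio also moved slightly with read density. Bins of 10 kb were put in 10 classes of equal number by their density in the myotube and pro-B libraries, which the ratio does not use. It was 1.02 (1.01 to 1.02) in the sparsest class, 0.99 (0.988 to 0.993) in the third class, and rose by class from there to 1.01 (1.01 to 1.01) in the densest. Windows of 1 kb chosen for a difference between the other cell types showed little of it in ES cells. The 11265 windows higher in pro-B cells than in myotubes held 8.21 reads with SB431542 and 7.88 without, a ratio of 1.02 (1.01 to 1.03). The 515 windows higher in myotubes held 9.88 and 9.54, a ratio of 0.959 (0.922 to 0.998) after centring by chromosome. Of these, 70.7% lie on chromosome 8, and scaled to the autosomal total alone their ratio was 1.01.

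At 100 kb, bins were kept when the 2 libraries averaged 100 reads or more, and a difference was counted when one library's centred share was at least 25% above the other's. Of 23389 such bins 66 were higher with SB431542 (0.282%) and 68 lower (0.291%), where counting error alone would give 14.2 and 14. Joined, they made 63 higher and 67 lower regions. The 50 kb on each side of a region leaned the same way by little, with a median ratio of 1.05 beside the higher and 0.957 beside the lower regions. The largest by the bound of the interval nearest to 1 lay on chromosome 17 from 39400001 to 39500000, with 686 reads against 400, and is described below with its narrow source. Leaving it aside, the named higher bins were alike in size. On chromosome 11 from 27100001 to 27200000 there were 597 reads with SB431542 and 446 without (1.33, 1.18 to 1.51), with 451 in myotubes and 393 in pro-B cells. On chromosome 4 from 123100001 to 123200000 there were 857 and 640 (1.30, 1.17 to 1.45).

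Among the lower bins, chromosome 5 from 35900001 to 36000000 held 494 reads with SB431542 and 659 without (0.740, 0.657 to 0.833), with 577 in myotubes and 644 in pro-B cells. A second bin further along, from 36600001 to 36700000, held 460 and 596 (0.762, 0.673 to 0.862). Chromosome 3 from 88100001 to 88200000 held 522 and 682 (0.743, 0.662 to 0.834). On chromosome 4 a pair of neighbouring bins, from 142200001 to 142400000, held 1029 and 1270 (0.788, 0.725 to 0.856), inside the distal stretch that was low in 10 Mb segments. The bins next to the rule differed little across it: the last bin counted as higher held 572 and 451 reads, and the first not counted 536 and 423.

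In bins of 10 kb with at least 60 reads in the 2 ES libraries together, a difference was counted from 2-fold. Of 213458 bins 136 were higher (0.0637%) and 79 lower (0.037%), where counting error alone would give 68.3 and 65.6. With these bin starts the lower count was thus near to what counting gives, and the higher count was above it. No 2 called bins were neighbours. In 88 of the higher and 55 of the lower bins both other cell types lay between the ES libraries, which the choice of extreme bins favours. With all bins moved by 5 kb the counts were 114 and 121. The lower count was then well above the counting value of the unmoved bins. With double the read minimum the counts were 18 and 19. The excess of higher over lower bins thus depends on both the bin start and the read minimum. The called bins tended to be sparse: those higher with SB431542 had a median of 41.5 reads per library, those lower 50, and all bins tested 60.5. The share with at most 40 reads was 44.1% of the higher, 25.3% of the lower and 6.88% of all bins.

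**Figure D4:**
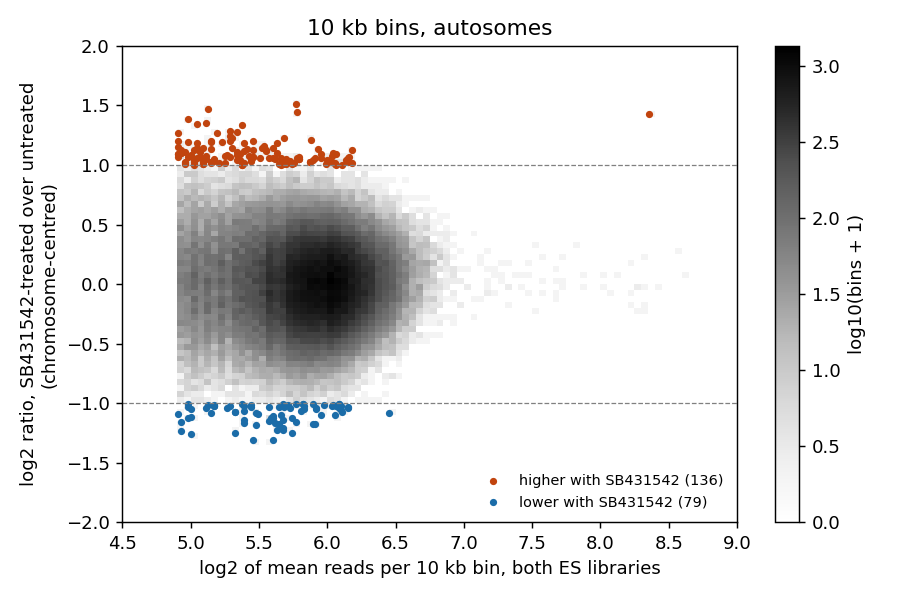
Log2 ratio of SB431542-treated to untreated ES, centred by chromosome, against the log2 of the mean reads, in 10 kb bins. Grey shading gives the number of bins (log10 scale), and points the 136 bins at least 2-fold higher and the 79 at least 2-fold lower. Most called bins sit at or below the usual read number, with medians of 41.5 and 50 beside 60.5 for all bins, and the bin of 479 against 178 reads on chromosome 17 lies far to the right.

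One 10 kb bin stood apart from the others in its read number. On chromosome 17 from 39450001 to 39460000 the SB431542 library had 479 reads and the untreated library 178, a ratio of 2.69 (2.26 to 3.21). The other named bins rested on far fewer reads. The next 3 higher bins lay on chromosome 17 from 74430001 to 74440000 (81 against 28 reads, 2.89, 1.86 to 4.62), chromosome 6 from 116320001 to 116330000 (81 against 29, 2.75, 1.78 to 4.35) and chromosome 19 from 50060001 to 50070000 (52 against 18, 2.83, 1.63 to 5.13). Their neighbourhoods did not share the difference: the 50 kb on each side gave 1.03, 0.969 and 1.03. In the bin at 74430001 the libraries fell into pairs, with 34 reads in myotubes beside the untreated 28, and 93 in pro-B cells beside the treated 81.

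The named lower bins also rested on few reads. Chromosome 4 from 47020001 to 47030000 held 28 reads with SB431542 and 69 without (0.398, 0.247 to 0.626), with 58 in myotubes and 38 in pro-B cells, and its flanks were at 0.877 (0.775 to 0.992). Chromosome 8 from 125040001 to 125050000 held 27 and 61 (0.4, 0.244 to 0.638), with flanks at 0.9 (0.806 to 1.00). Chromosome 5 from 64650001 to 64660000, the densest of the named lower bins, held 56 and 119 (0.471, 0.336 to 0.652), where myotubes had 82 and pro-B cells 65. Beside the bin on chromosome 2 from 26860001 to 26870000 (37 against 83 reads, 0.439) the flanks were lower still, at 0.784 (0.692 to 0.888), and this bin lies in a 100 kb bin that was itself among the named lower ones (447 against 577).

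Runs of bins were scarce. A single run met the rule of 4 or more neighbouring 10 kb bins with log2 ratios of at least 0.5 in 1 direction. It lay on chromosome 17 from 76610001 to 76650000 and held 250 reads with SB431542 and 158 without, a ratio of 1.58 (1.29 to 1.94). Its bins held 62 and 34, 74 and 49, 41 and 24, and 73 and 51 reads. Myotubes had 207 reads and pro-B cells 217 in the same 40 kb. Both lay between the ES libraries, which the choice of an extreme run favours. This run was lost when the ratio was scaled to the autosomal total alone, where 1 lower run appeared in its place. Runs of 3 or more bins numbered 23 higher and 31 lower, and runs of 2 or more bins 379 and 426.

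In windows of 1 kb a difference was counted from 3-fold, with at least 20 reads in the higher library. Of 202648 windows with at least 20 reads in the 2 ES libraries together, 302 were higher (0.149%) and 117 lower (0.0577%), where counting error alone would give 180 and 134. Chromosome 8 held 68 of the higher and 15 of the lower windows, with 39.3 and 15.6 from counting alone. It also held more windows deep enough to be called: 19.6% of its windows reached 20 reads in the 2 libraries together, beside 6.82% (chromosome 7) to 10% (chromosome 19) on the other autosomes. Outside chromosome 8 there were 234 higher and 102 lower windows, with 141 and 118 from counting alone, so the excess of higher windows was present without that chromosome. With 1 read in each library as the minimum, 55035 windows were higher and 77589 lower. In that setting many small counts lie exactly at the 3-fold rule before scaling. On most chromosomes scaling then counts them when lower and not when higher. These counts therefore cannot tell whether the excess of higher windows depends on the read minimum. On chromosome 5 there were 16 higher and 15 lower windows, with 8.09 from counting alone in each direction.

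The single windows with the largest ratios had few reads in one library. On chromosome 13 from 100191001 to 100192000 there were 20 reads with SB431542 and 0 without, and the interval of the ratio starts at 4.79. Myotubes had 9 reads there and pro-B cells 2. On chromosome 6 from 25005001 to 25006000 there were 21 and 1 (20.6, 3.32 to 853). In the other direction, chromosome 11 from 78045001 to 78046000 held 2 reads with SB431542 and 22 without (0.0909, 0.0104 to 0.370), beside 5 reads in myotubes and 7 in pro-B cells. Over all regions at this scale, both other cell types lay between the ES libraries in 195 of 300 higher and 73 of 117 lower ones, which the choice of extreme windows favours.

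The densest local difference was a block of 6 kb on chromosome 17, from 39451001 to 39457000, inside the 10 kb bin above. It was bounded by the first and last 1 kb window with at least 20 SB431542 reads in that bin. The SB431542 library held 471 reads there, the untreated library 169, myotubes 305 and pro-B cells 368. Scaled for depth and chromosome, these were 79.5 reads per kb with SB431542, 28.5 without, 54.3 in myotubes and 63.0 in pro-B cells. The untreated library was thus the lowest of the 4 and the SB431542 library the highest. On this scale pro-B cells lay nearer to the treated cells, and myotubes about midway between the ES libraries. That the ES libraries lay outermost is favoured by the choice of an extreme bin. The ratio between the ES libraries was 2.79 (2.33 to 3.34).

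All 4 libraries were dense in the block, at 13.3 (SB431542), 4.77 (untreated), 9.24 (myotubes) and 10.95 (pro-B) times the median density of chromosome 17. The 10 kb before it held 13 to 21 reads in each library and the 10 kb after it 17 to 21, below the chromosome's median in all 4. Both strands carried the difference, with 244 reads against 76 on the plus strand (3.21) and 227 against 93 on the minus strand (2.44). In 1 kb steps the ratios were 2.07, 3.43, 3 and 3.13 in the first 4 steps and 3.12 in the last. The fifth step had 6 and 7 reads, few in the other libraries too (11 and 17). The block made up the whole of the difference in its 100 kb bin, which held 215 and 231 reads without it, a ratio of 0.931 (0.769 to 1.13).

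The block was set beside other dense windows by a rule that did not use the ES libraries, written after the block had been seen. Of 107 windows of 1 kb with at least 40 reads in both the myotube and the pro-B library, 4 lay in the block, with ratios from 2.07 to 3.43. The other 103 made up 25 stretches, of which 1, at the start of chromosome 11 from 3001001 to 3100000, held 58 of the windows (median ratio 1.05). Together they had ratios from 0.732 to 1.42 with a median of 1.06, and none was above 1.5. Whether the cells hold more copies of the block than the build does, which would add the reads of all copies here, was not tested. With reads that align to 2 places added, the block held 626 and 270 reads, a ratio of 2.32 (2.01 to 2.68). With all reads as deposited it held 525 and 184, a ratio of 2.75 (2.32 to 3.27). No gene is placed here, since no annotation of the mm8 build was used.

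**Figure D5:**
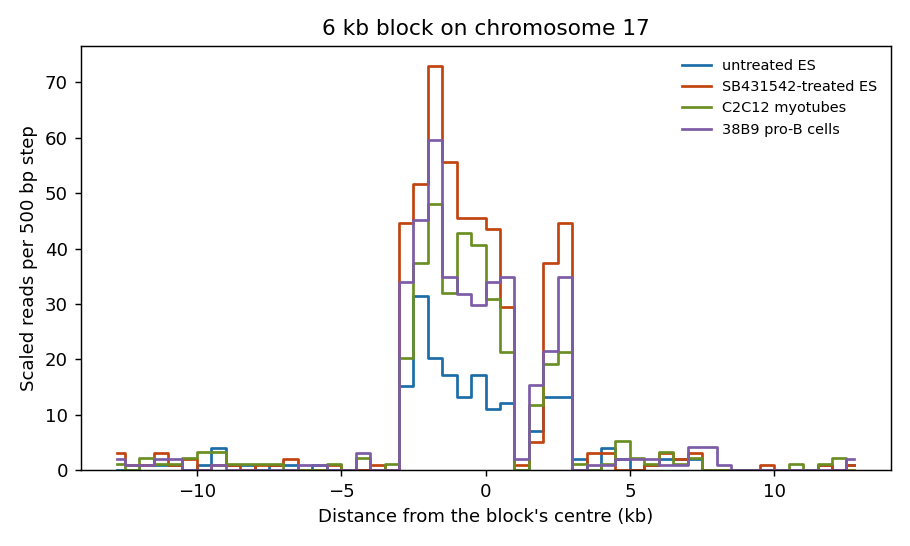
Reads per 500 bp step, scaled for depth and chromosome, by distance (kb) from the centre of the 6 kb block on chromosome 17, 1 line per library. The SB431542 line is above the untreated line through most of the block, with myotubes and pro-B cells mostly in between, and all 4 libraries are close to 0 on both sides.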

How the data were processed

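H3 ChIP-seq was read in 1 library per group. The deposited files hold no count or score: each line is 1 aligned read as a position, negative on the minus strand. Per the file headers, the authors aligned reads with Bowtie to mm8, with a seed of 36 bases, up to 2 mismatches in it and at most 2 places per read. The version is not given in the sources used here. Here 1 read per position and strand was kept, from the section of reads taken as having 1 reported place, on the 19 autosomes (13132855 distinct positions untreated, 13469179 with SB431542), and counted in bins of 1, 10 and 100 kb. Log2 ratios (0.5 added to counts in 10 and 100 kb bins) were scaled to the autosomal total and centred on the chromosome's median ratio in bins of the same size, with the 10 kb centre also used for 1 kb windows, segments and the block on chromosome 17. Calls follow rules of size, as 1 library a group allows no test, and intervals are exact binomial. Up to 8 regions per direction and scale, ranked by the bound nearest to 1, could be named, and those printed are a part of them. Segments of 10 Mb and dense windows were added after seeing the data. Repeats can be copies from library amplification, and keeping 1 limits very dense places. The scripts (Python 3.11.15, numpy 2.4.6, scipy 1.17.1) were tested on simulated data. The comparison, rules and lists were chosen with earlier results of these data known. Alternatives changed scaling, repeats, reads with 2 places, bin start, read minimum, strand and fold.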

Additional observations from a re-analysis of the deposited data

How the results depend on the processing

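Of 52 alternative values of the main results, 23 stayed within the limit set for each (1.5 times for counts) and 29 moved past it. The balance of higher to lower turned at 1 kb from 302 and 117 to 55035 and 77589 with 1 read as the minimum. This turn is in part built in, since small counts that tie at the rule fall to the lower side on most chromosomes. At 10 kb the balance turned from 136 and 79 to 114 and 121 with bins moved, and to 18 and 19 with double the minimum. For runs (1 higher) more were lower than higher in all settings but bins moved (2 and 2) and double the minimum (0). At 100 kb the balance was near even (66 and 68), and 331 and 311 with the plus strand. In the following, counts join higher and lower. At 100 kb (134) the count was 345 with 1 read in each library as the minimum, 642 and 658 with the plus or minus strand alone, and 1 at 1.5-fold. At 10 kb (215) it was 37 with double the read minimum, 1950 with 1 read as the minimum, 2832 and 2876 with 1 strand, and 8763 at 1.5-fold. At 1 kb (419) it was 920 with all reads as deposited, 3 with double the minimum, 132624 with 1 read as the minimum, 9599 and 9985 with 1 strand, and 1335 at 2-fold. Runs (1) numbered 5 with all reads, 5 with reads of 2 places added, 4 with bins moved, 0 with double the minimum, 22 with 1 read as the minimum, 46 and 48 with 1 strand, and 36 at a log2 ratio of 0.4. By construction, single strands and other minimums change the reads behind a bin, and other folds change what is counted. Otherwise the cause was not tested. With all reads as deposited, the offset difference was -1.55 bp and ran from -11.3 to 102 bp over the autosomes, and the spacing ratio was 1.03 at 3 to 7 bp (0.828 to 1.30) and 0.961 at 8 to 20 bp. The spread at 100 kb was 1.85 with total scaling and 1.79 with all reads. The ratio in the densest class was 1.01 (1.007 to 1.011) with the density from myotubes. The block on chromosome 17 stood at 2.32 with reads of 2 places added, a setting chosen after seeing the data. No paired analysis was possible because each group has 1 library and no result comes from a test.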
